A study of Mus musculus with 2 samples.

Results

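The acute-phase genes Saa1, Saa3, Lcn2, Hp, Lbp, Chil1, Slpi and Ptx3, together with the inducible nitric oxide synthase gene Nos2, were examined in single cells of mouse fracture callus. These 9 members, of 32285 genes in the deposited matrices and 23900 with at least 1 UMI in the kept cells, were found by gene symbol, and each had a row in both matrices. They had been selected on their UMI levels in callus cell classes of these same libraries, so their levels across cell classes and libraries are given below as a description without a test. Callus tissue came from a femoral fracture model in wt mice, without further alleles or agents in the labels, and the study's methods name 12-week-old male C57BL/6J animals and a pinned transverse break of the right femur. The design text describes calluses taken 10 and 20 days after fracture from 5 mice at each time. The labels do not say which time point, or how many mice, the libraries MGJ and MGJ2 stand for. MGJ and MGJ2 were therefore treated as 2 unassigned samples, and values are set side by side without a comparison between times.

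Acute-phase proteins are secreted, classically by the liver, when interleukin-1, interleukin-6 or tumour necrosis factor signals tissue damage or infection. Factors of the C/EBP, STAT3 and NF-kappaB families drive their transcription, and many of the same genes are also switched on outside the liver in inflamed connective tissue and in maturing myeloid cells. In cartilage, chondrocytes exposed to interleukin-1 are known to make nitric oxide through Nos2 and to secrete lipocalin 2 and the chitinase-like protein Chil1.

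Saa1 and Saa3 encode serum amyloid A proteins, which travel with high-density lipoprotein and attract leukocytes, and both lie on chromosome 7 of GRCm38 on the minus strand (Saa1, ENSMUSG00000074115, 46740497 to 46742980, and Saa3, ENSMUSG00000040026, 46711998 to 46715700). The binding and scavenging members are Lcn2 (chromosome 2, 32384633 to 32388252, minus strand), which sequesters iron-loaded bacterial siderophores, and Hp (chromosome 8, 109575128 to 109579172, minus strand), which binds free haemoglobin. The recognition members are Lbp (chromosome 2, 158306493 to 158332852, plus strand), which hands lipopolysaccharide to CD14, Ptx3 (chromosome 3, 66219910 to 66225805, plus strand), a soluble pattern-recognition pentraxin, and Chil1 (chromosome 1, 134182176 to 134190181, plus strand), a chitinase-like lectin. Slpi (chromosome 2, 164354070 to 164389095, minus strand) inhibits neutrophil elastase and cathepsin G, and Nos2 (chromosome 11, 78920787 to 78960254, plus strand) makes nitric oxide from arginine. All 9 are annotated as protein-coding.

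Promoter windows from 250 bases before to 50 bases after the transcription start were available in RefSeq on GRCm38.p6 for 6 of the 9 members. The windows of Saa1, Saa3, Lcn2 and Chil1 are shown because these genes had some of the steepest differences inside the chondrocyte-like cells described below. Capitals mark matches to a C/EBP motif written TTNNGNAA and, among these 4 in Chil1 alone, to an NF-kappaB motif, both searched on both strands.
Saa1, chr7:46742931-46743230, minus strand: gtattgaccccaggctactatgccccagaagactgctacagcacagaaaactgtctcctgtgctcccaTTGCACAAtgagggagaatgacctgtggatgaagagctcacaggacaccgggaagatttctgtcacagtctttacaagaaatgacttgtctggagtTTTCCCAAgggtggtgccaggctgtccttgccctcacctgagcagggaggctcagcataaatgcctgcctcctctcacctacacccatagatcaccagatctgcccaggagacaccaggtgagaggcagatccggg
Saa3, chr7:46715627-46715926, minus strand: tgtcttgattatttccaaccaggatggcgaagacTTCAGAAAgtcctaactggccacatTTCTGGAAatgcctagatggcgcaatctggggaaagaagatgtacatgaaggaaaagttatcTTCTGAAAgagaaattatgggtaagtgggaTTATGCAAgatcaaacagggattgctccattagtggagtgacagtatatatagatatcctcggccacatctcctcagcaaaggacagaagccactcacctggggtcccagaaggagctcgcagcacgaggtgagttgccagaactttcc
Lcn2, chr2:32387690-32387989, minus strand: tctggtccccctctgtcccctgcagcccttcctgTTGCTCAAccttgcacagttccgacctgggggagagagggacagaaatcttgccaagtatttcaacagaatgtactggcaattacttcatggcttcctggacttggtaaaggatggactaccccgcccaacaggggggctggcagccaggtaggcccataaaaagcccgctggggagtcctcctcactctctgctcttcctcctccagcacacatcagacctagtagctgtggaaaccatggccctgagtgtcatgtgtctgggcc
Chil1, chr1:134181906-134182205, plus strand: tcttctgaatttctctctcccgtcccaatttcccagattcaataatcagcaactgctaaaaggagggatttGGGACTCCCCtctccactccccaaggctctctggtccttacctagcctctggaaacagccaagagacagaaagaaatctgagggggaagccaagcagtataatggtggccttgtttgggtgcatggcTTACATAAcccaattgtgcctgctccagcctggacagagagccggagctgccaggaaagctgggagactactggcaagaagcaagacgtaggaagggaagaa

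The window of Saa3 held 4 C/EBP matches, that of Saa1 held 2, and those of Lcn2 and Chil1 held 1 each. Slpi and Ptx3, whose windows are not shown, had 3 and 1 such matches, and Ptx3 also had 2 overlapping NF-kappaB matches. The C/EBP letters occurred in 40.7% of 32851 promoter windows of the same length and the NF-kappaB motif in 8.46%, so a match describes letters and not a bound site.

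MGJ held 14295 barcodes with 135304426 UMIs and MGJ2 8009 barcodes with 61130834 UMIs, where a UMI is 1 tagged RNA molecule. Once called doublets, barcodes under 200 genes and those above 20% in mitochondrial UMIs were left out, 12972 and 7583 cells were kept, with median depths of 5538 and 4930 UMIs. The libraries differed in make-up. MGJ had 2717 chondrocyte-like, 931 fibroblast-like and 881 macrophage-like cells against 143, 5 and 25 in MGJ2, and MGJ2 was richer in lymphoid cells. Clusters that could not be named from the markers took 23.8% of kept cells in MGJ and 3.85% in MGJ2. The largest, led by Ccl3 and Ccl4, had 2527 cells in MGJ and 12 in MGJ2. It scored highest on neutrophil markers but had few UMIs and no such marker among its leading genes. Unnamed cells of MGJ held between 3.86% (Nos2) and 35.6% (Lcn2) of a member's UMIs, with 28.9% for Saa3 and 25.8% for Slpi. The levels of named classes leave them out. The libraries shared 19 barcodes, of which 13 were kept in both. Levels are given as UMIs per 1e6 UMIs of the class (CPM, counts per 1e6) with exact 95% Poisson intervals, which cover counting error only, and levels of different genes are not compared with each other.

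**Figure D1:**
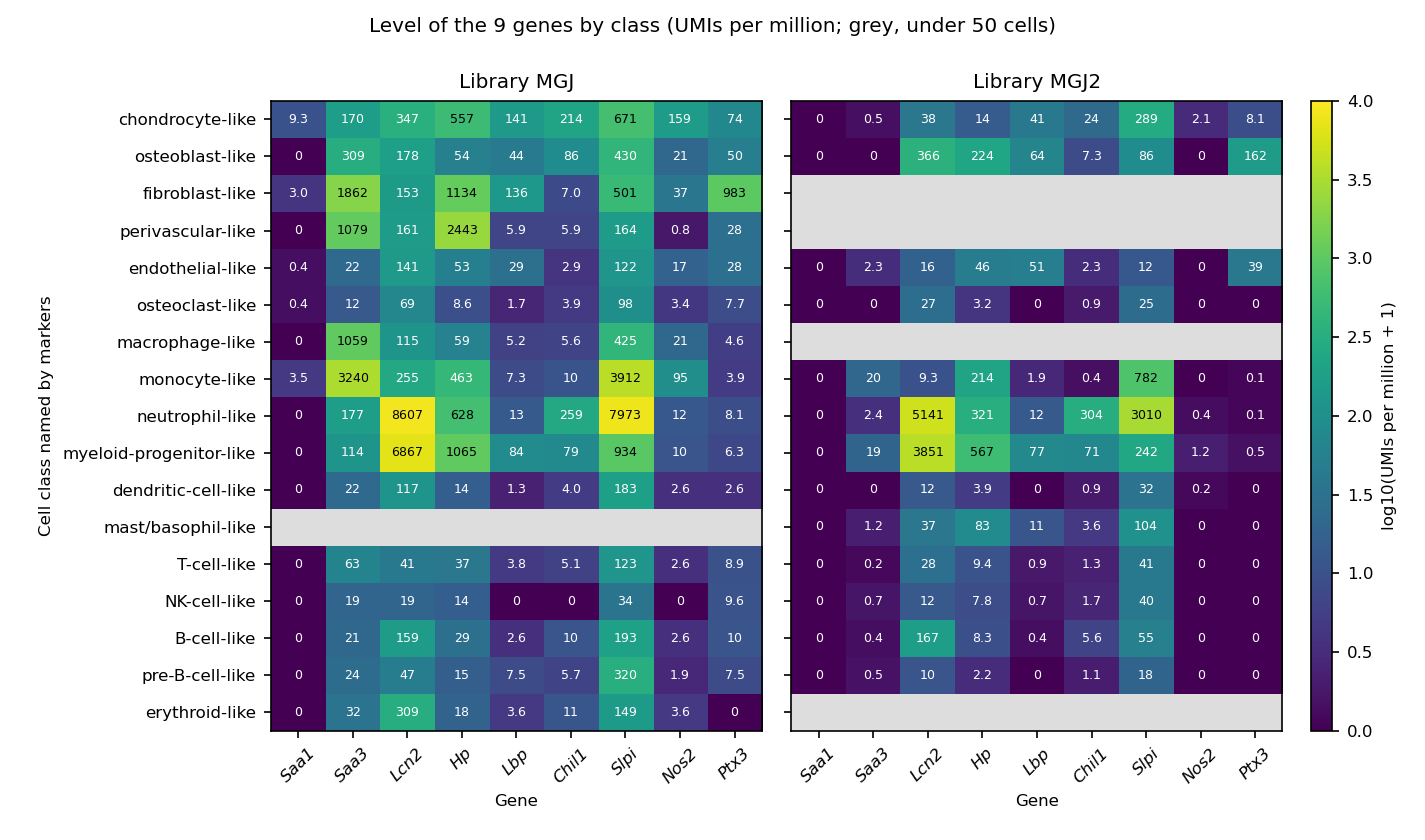
Heat map of the level of the 9 members (columns) in every marker-defined class with at least 50 cells (lines), MGJ on the left and MGJ2 on the right. Numbers are CPM, the colour is the log10 of CPM plus 1, and classes with fewer cells are grey. Lcn2 stood highest in neutrophil-like cells of both libraries, Saa3 in monocyte-like cells of both, Ptx3 in fibroblast-like cells of MGJ, and Nos2 in chondrocyte-like cells of MGJ.

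Saa1 was the scarcest of the members, with 647 UMIs in MGJ and 0 in MGJ2. Chondrocyte-like cells of MGJ carried 536 of those UMIs, or 82.8%, at 9.31 CPM (interval 8.54 to 10.1), followed by 3.55 CPM in monocyte-like and 2.98 CPM in fibroblast-like cells with overlapping intervals. In chondrocyte-like cells of MGJ2 the count of 0 had an exact upper limit of 0.851 CPM. Saa1 and Saa2 are near-identical neighbours, and reads could be split between them, so the level of Saa1 is uncertain. Saa3 had another distribution. It reached 3239.6 CPM (3202 to 3278) in monocyte-like cells of MGJ, then 1862 CPM in fibroblast-like, 1079 CPM in perivascular-like and 1059 CPM in macrophage-like cells, and the intervals of the last 2 overlapped. Chondrocyte-like cells of MGJ stood at 170 CPM. In MGJ2 the highest classes were monocyte-like cells at 20.1 CPM and myeloid-progenitor-like cells at 18.6 CPM, also with overlapping intervals, and chondrocyte-like cells held 2 Saa3 UMIs.

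Lcn2, which neutrophils store in their specific granules, had its highest levels in neutrophil-like cells, 8607 CPM in MGJ and 5141 CPM in MGJ2, and in myeloid-progenitor-like cells, 6867 and 3851 CPM. Chondrocyte-like cells had 347 CPM in MGJ and 37.6 CPM in MGJ2, and osteoblast-like cells 178 and 366 CPM. In osteoblast-like cells the neutrophil marker S100a8 stood at 675 CPM in MGJ and 5060 CPM in MGJ2. The richest 6 osteoblast-like cells of MGJ2 held 99.0% of the Lcn2 UMIs of that class. The part of neutrophil RNA in these values was not tested. Hp led in perivascular-like cells of MGJ at 2443 CPM, followed by fibroblast-like cells at 1134 CPM and myeloid-progenitor-like cells at 1065 CPM. In chondrocyte-like cells the Hp level was 557 CPM in MGJ and 13.6 CPM in MGJ2, while neutrophil-like cells had 628 and 321 CPM.

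Lbp was highest in the connective tissue classes of MGJ. Chondrocyte-like cells had 141 CPM (138 to 144) and fibroblast-like cells 136 CPM (130 to 142), 2 classes whose intervals overlapped, and myeloid-progenitor-like cells followed at 84.4 CPM. In MGJ2 the myeloid-progenitor-like cells came first with 76.7 CPM, ahead of osteoblast-like cells at 64.3 CPM, endothelial-like cells at 50.8 CPM and chondrocyte-like cells at 40.6 CPM, and the intervals of neighbours in this order overlapped. Ptx3 was concentrated in fibroblast-like cells of MGJ, which held 68.1% of its UMIs at 983 CPM (967 to 998.5). Its next levels in MGJ were 73.8 CPM in chondrocyte-like and 50.3 CPM in osteoblast-like cells. Osteoblast-like cells had 162 CPM of Ptx3 in MGJ2, above the 8.07 CPM of chondrocyte-like cells there. Chil1 was high in neutrophil-like cells, at 259 CPM (247 to 271) in MGJ and 304 CPM in MGJ2, and stood at 214 CPM (211 to 218) in chondrocyte-like cells of MGJ against 23.5 CPM in those of MGJ2.

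Slpi was highest in neutrophil-like cells, at 7973 CPM in MGJ and 3009.9 CPM in MGJ2, and next in monocyte-like cells at 3912 and 782 CPM. Chondrocyte-like cells had 671 and 289 CPM, and fibroblast-like cells of MGJ 501 CPM. Nos2 was the member with the largest share of its UMIs in chondrocyte-like cells after Saa1, 9130 UMIs or 80.6% in MGJ, at 159 CPM (155 to 162). Monocyte-like cells followed at 94.99 CPM, fibroblast-like cells at 36.7 CPM, and macrophage-like and osteoblast-like cells at 20.8 and 20.6 CPM with overlapping intervals. In MGJ2 Nos2 was nearly absent from the counts, with 22 UMIs in all kept cells, 9 of them in chondrocyte-like cells (2.08 CPM) and 0 in monocyte-like cells.

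Chondrocyte-like cells were then set against all other kept cells of the same library. In MGJ, 4 of the 9 members were at least 2-fold higher in chondrocyte-like cells, where 14.1% of 14649 genes were: Saa1 by 5.73-fold (4.66 to 7.09), Nos2 by 4.91-fold (4.69 to 5.15), Chil1 by 3.47-fold (3.354 to 3.598) and Lbp by 2.52-fold (2.42 to 2.62). Another 4 were at least 2-fold lower, where 26.7% of all genes were, with ratios of 0.115 for Saa3, 0.164 for Lcn2, 0.287 for Ptx3 and 0.299 for Slpi. The ratio for Hp was 0.744, and the median over all genes was 0.859. Of the 7 members with enough UMIs in MGJ2, Ptx3 (3.01-fold, 2.02 to 4.38) and Lbp (2.60-fold, 2.20 to 3.06) were at least 2-fold higher and the other 5 at least 2-fold lower, against 19.9% and 33.1% of 13065 genes. Lbp was thus above the 2-fold line in both libraries. At a 4-fold line, passed by 5.75% of genes in MGJ and 11.3% in MGJ2, Saa1 and Nos2 were past it in MGJ and no member in MGJ2.

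Much of the Saa1, Saa3, Hp, Chil1 and Lcn2 signal of chondrocyte-like cells of MGJ came from a few cells. Clustering that left the 9 members out of its genes set apart 47 cells, 1.73% of the 2717 and all of them from MGJ, whose leading genes were Mmp3, Steap4, Mmp13, Slc39a8, Serpina3n, Cp, Spp1, Mt2, Mt1 and C3. MGJ2 had 143 chondrocyte-like cells, too few to read the absence of such cells there as a difference between the libraries. Mmp3 and Mmp13 are matrix-degrading proteases, and Steap4, Slc39a8, Cp and the metallothioneins handle metals. All 12 chondrocyte markers were detected in the 47 cells and all 12 were lower than in the other chondrocyte-like cells. Col2a1 was at 38228 against 55537 CPM, Acan at 2029 against 5340.3 CPM, Hapln1 at 1285 against 4931 CPM and Matn1 at 21.2 against 308 CPM. With each cell named by its own highest marker score, 36 of the 47 were chondrocyte-like and 5 fibroblast-like. Of 11 fibroblast markers 8 were above the rest, among them Dcn, which cartilage also makes, at 7085 against 2017 CPM, and all 8 macrophage markers were below it. Neutrophil markers were not higher as a list: S100a8 was at 176 against 490 CPM, S100a9 at 242 against 624 CPM, Csf3r and Ly6g at 0, and of 10 markers only Camp (58.4 against 26.7 CPM) and Mmp8 (4.03 against 2.46 CPM) were above the rest. Median depth was 20366 UMIs per cell against 21076, and the mitochondrial share 3.04% against 3.59%. The median doublet score was higher, 0.149 against 0.0934, and the part of doublets in the levels of these cells was not tested.

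All 9 members were at least 2-fold higher in these 47 cells than in the other chondrocyte-like cells, where 4.98% of 12478 genes were. The members took no part in the clustering but had been chosen with these data known, so the count is a description. Saa1 was at 454 against 1.502 CPM, a ratio of 303 (239 to 386), and Saa3 at 7174 against 47.0 CPM, a ratio of 153 (146 to 160). For Hp the levels were 21997 and 181 CPM (122-fold), for Chil1 6343 and 107 CPM (59.4-fold) and for Lcn2 9365 and 189 CPM (49.5-fold). Lbp was 14.7-fold higher at 1672 against 114 CPM, and Slpi 10.9-fold higher at 6228 against 573 CPM. The smallest ratios were those of Nos2, 533 against 152 CPM (3.51-fold), and Ptx3, 157 against 72.3 CPM (2.17-fold, 1.84 to 2.55).

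The 47 cells contributed 1.72% of the UMIs of chondrocyte-like cells of MGJ but 84.1% of the Saa1, 72.8% of the Saa3, 68.1% of the Hp, 51.0% of the Chil1 and 46.5% of the Lcn2 UMIs. Their share was 20.5% for Lbp, 16.0% for Slpi, 5.79% for Nos2 and 3.67% for Ptx3. Without them, 2 members were at least 2-fold higher in chondrocyte-like than in other cells, Nos2 at 4.71-fold and Lbp at 2.04-fold, while Chil1 went to 1.73-fold, Saa1 to 0.924 and Hp to 0.242. With clusters drawn at resolution 2 in place of 1, 37 of the 47 cells fell in an unnamed cluster and Nos2 alone was past 2-fold.

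**Figure D2:**
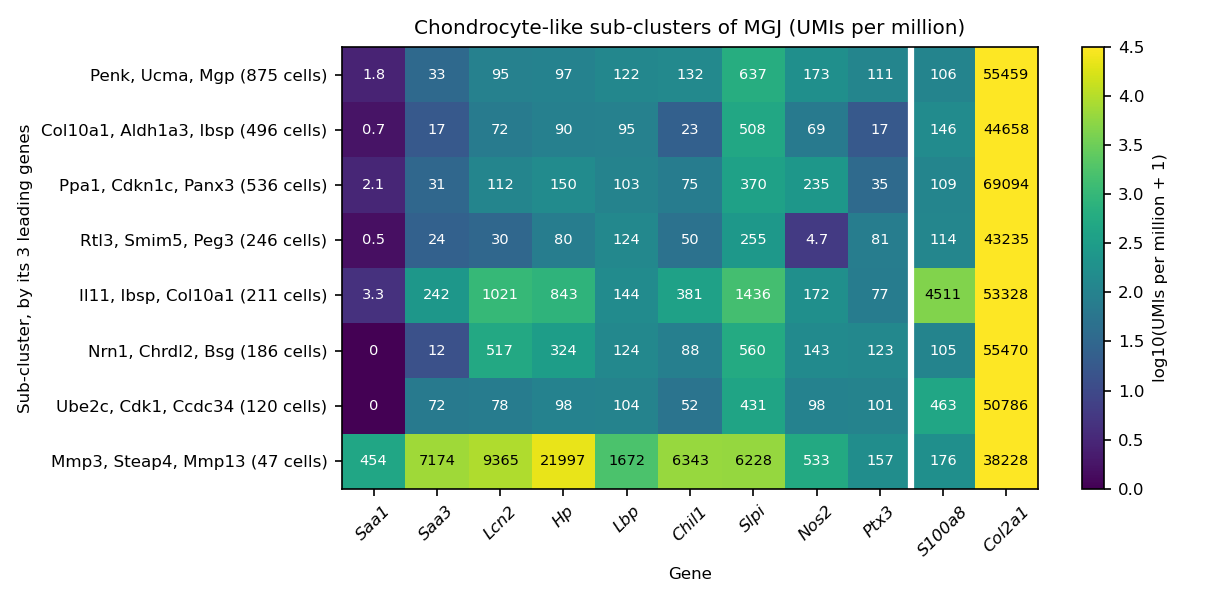
Heat map of the levels of the 9 members, S100a8 and Col2a1 (columns) in the sub-clusters of chondrocyte-like cells of MGJ (lines, by leading genes and number of cells). Numbers are CPM and the colour is the log10 of CPM plus 1. The Mmp3-led sub-cluster of 47 cells stood at the top for all 9 members, whereas Nos2 ranged from 4.74 to 235 CPM and Ptx3 from 17.2 to 123 CPM over the others.

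Detection within the 47 cells was broad for some members and narrow for others. Lbp and Slpi had a UMI in all 47 cells, with lowest values of 49.1 and 249.4 CPM, medians of 1441 and 5059.9 CPM and highest values of 5859 and 16876 CPM. Chil1 was seen in 46 cells, Hp in 45, Lcn2 in 44, Nos2 in 40, Saa3 in 32, Ptx3 in 31 and Saa1 in 12. Hp had a median of 18593 CPM and a highest value of 79171 CPM, and Saa3 a median of 1591 CPM and a highest value of 72129 CPM. For Saa1 the median cell was at 0 and the highest at 6374 CPM. A cell carried between 4 and 9 of the members, with a median of 7, and 41 of the 47 carried at least 7.

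Among the other chondrocyte-like sub-clusters of MGJ, Nos2 covered a wide range. It was at 235 CPM in 536 cells led by Ppa1, Cdkn1c and Panx3, at 173 CPM in 875 cells led by Penk, Ucma and Mgp, at 69.2 CPM in 496 cells led by Col10a1, Aldh1a3 and Ibsp, and at 4.74 CPM in 246 cells led by Rtl3, Smim5 and Peg3. Lcn2 and Hp reached 517 and 324 CPM in 186 cells led by Nrn1 and Chrdl2, in which S100a8 stood at 105 CPM. In 211 cells led by Il11 and Ibsp, Lcn2 was at 1021 CPM and Hp at 843 CPM, and there S100a8 was at 4511 CPM, against 105 to 463 CPM in the other sub-clusters larger than the Mmp3-led one. The part of RNA from neutrophils in these last values was not tested.

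The distribution over single cells followed the same division. In chondrocyte-like cells of MGJ the 27 cells richest in each member held 99.4% of the UMIs of Saa1, 81.7% of those of Saa3, 69.5% for Hp, 54.9% for Chil1 and 46.8% for Lcn2. The corresponding shares were 19.1% for Lbp, 18.0% for Slpi, 16.2% for Ptx3 and 13.7% for Nos2. Nos2 had a UMI in 1023 of the 2717 cells and Ptx3 in 1196, against 30 cells for Saa1 and 681 for Saa3. The richest 10% of the cells held 97.5% of Hp, 95.7% of Saa3, 65.9% of Nos2 and 53.1% of Lbp UMIs. In myeloid-progenitor-like cells, by contrast, the richest 10% held 24.7% of Lcn2 and 23.6% of Hp UMIs.

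**Figure D3:**
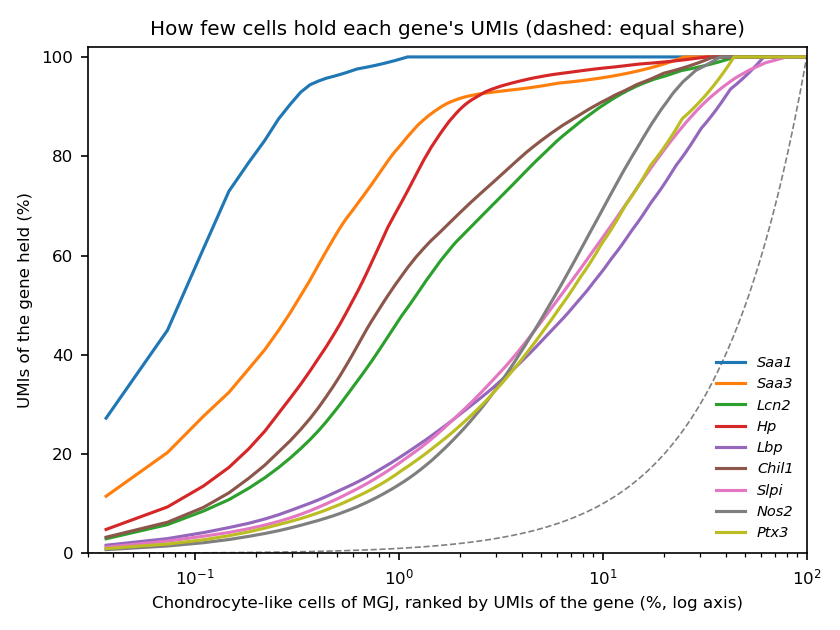
Cumulative share of the UMIs of each member (percent) against the percent of chondrocyte-like cells of MGJ (log axis), with cells ranked from the richest in that member and an equal share dashed. Curves for Saa1, Saa3, Hp, Chil1 and Lcn2 rise within the first 1% of cells (99.4%, 81.7%, 69.5%, 54.9% and 46.8%), and those for Lbp, Slpi, Ptx3 and Nos2 rise later.

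Detection of several members in the same chondrocyte-like cells was compared next. To remove differences in depth, each cell was thinned to 2000 UMIs, which left 2674 chondrocyte-like cells of MGJ. Hp had a UMI in 37.6% of the 125 cells with Saa3 and in 7.61% of the others, and in 21.7% of the 410 cells with Lcn2 against 6.71% of the others. Chil1 was found in 34.0% of the 241 cells with Hp against 9.58% of the others. Pearson's r across the 2717 cells, which share 1 library and are not replicates, was 0.569 for Lcn2 with Hp and 0.548 for Hp with Chil1, and 0.331 and 0.293 without the 47 cells. Ptx3 was found in 12.8% of cells with Saa3 against 11.5% of the rest, and in 14.0% of cells with Nos2 against 11.0%. It was in 19.9% of cells with Hp against 10.7%, 17.3% with Lcn2 against 10.5%, and 16.8% with Chil1 against 10.8%. The shares were 16.4% against 10.4% with Lbp and 13.5% against 10.3% with Slpi. At this depth 14.1% of thinned chondrocyte-like cells of MGJ carried at least 3 members, against 30.7% of fibroblast-like, 27.4% of monocyte-like and 61.3% of neutrophil-like cells. In MGJ2 1 of 143 chondrocyte-like cells did, or 0.699%.

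Fibroblast-like cells of MGJ had an acute-phase group of their own. A sub-cluster of 292 cells led by Sfrp1 and Cxcl12 had Ptx3 at 2378 CPM, Saa3 at 3881 CPM, Hp at 2199.8 CPM and Lbp at 278 CPM, while 117 cells led by Prg4, which makes the lubricant of joint surfaces, had Ptx3 and Hp at 45.5 CPM each and Lbp at 33.1 CPM. A further 151 cells of the fibroblast cluster, led by Tagln, Grem1 and Acta2 and left unnamed, had Saa3 at 9165 CPM and Hp at 4488 CPM but Ptx3 at 390.3 CPM. Of thinned fibroblast-like cells with Saa3, 80.7% also had Hp, against 25.2% of the others. Nos2 was at 5.15 CPM in the Sfrp1-led and 69.4 CPM in the Prg4-led cells, the reverse of the order of Ptx3.

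In neutrophil-like cells Lcn2 and Slpi had opposite orders between granule-rich cells and the largest sub-cluster of each library. Cells led by the granule genes Ltf and Ngp, which mark immature neutrophils, had Lcn2 at 17559 CPM (21 cells, MGJ) and 11656 CPM (283 cells, MGJ2) and Slpi at 1531 and 587 CPM. The 1513 cells of MGJ led by Cstdc4 and Stfa2l1 had Lcn2 at 6159.96 CPM and Slpi at 12407 CPM. In MGJ2 the 1523 cells led by Acod1 and Cyp4f18 had Lcn2 at 812 CPM and Slpi at 4868 CPM. Between the clusters led by Cstdc4 and by Acod1, Lcn2 and Slpi had the same order. In MGJ Lcn2 was at 6144 against 2433 CPM and Slpi at 12322 against 8145 CPM. In MGJ2, with 38 Cstdc4-led cells, Lcn2 was at 2403 against 762 CPM and Slpi at 7264 against 4788 CPM. Chil1 moved less, between 176 and 406 CPM over the sub-clusters led by Ltf, Cstdc4, Acod1, Retnlg or Rsad2.

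The libraries were next set side by side within classes. In chondrocyte-like cells 7 of the 9 members were at least 4-fold higher in MGJ than in MGJ2, where 2.07% of 12686 genes were and 1.08% were at least 4-fold lower. Saa1 was at least 13.5-fold higher (536 UMIs against 0, with a floor of 3 counts). Only 30 of the 2717 cells of MGJ had a Saa1 UMI, so a 0 over the 143 cells of MGJ2 says little. The ratio for Saa3 was 368 (101.9 to 3041), resting on 2 UMIs in MGJ2. Nos2 had a ratio of 76.4 (40.2 to 167), Hp 40.9 (31.7 to 53.8), Lcn2 9.24 (7.92 to 10.9), Ptx3 9.14 (6.56 to 13.1) and Chil1 9.11 (7.50 to 11.2). Lbp and Slpi were 3.47-fold and 2.32-fold higher. Different clusters held the class in the libraries: 71.3% of these cells in MGJ were in an Ucma-led cluster, and 66.4% of those in MGJ2 in a Col10a1-led cluster.

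Within the Ucma-led cluster, with 1937 cells of MGJ and 47 of MGJ2, Saa3 and Nos2 had 8140 and 7583 UMIs in MGJ against 0 in MGJ2, at least 99.7-fold and 92.9-fold higher, and the ratio was 126 for Lcn2 (54.0 to 388), 109 for Hp (59.3 to 228), 5.02 for Chil1, 4.59 for Ptx3, 2.61 for Lbp and 2.58 for Slpi. This cluster held 44 of the 47 Mmp3-led cells of MGJ. All 47 of those had 7121 Saa3, 21835 Hp and 9296 Lcn2 UMIs, beside 8140, 29691 and 17139 in the whole cluster of MGJ. The ratios of this cluster without them were not taken. Within the Col10a1-led cluster, which had 681 cells of MGJ and 95 of MGJ2, the ratios were 135 for Saa3 (37.3 to 1115), 27.0 for Nos2 (14.2 to 59.3), 11.6 for Chil1, 8.68 for Ptx3, 8.203 for Hp, 3.83 for Lbp, 3.20 for Lcn2 and 1.95 for Slpi. Without the 47 Mmp3-led cells Saa1 stood at 1.502 CPM in MGJ, under 4 times the floor of 0.692 CPM in MGJ2. The ratio over the class was then 101.8 for Saa3, 73.2 for Nos2, 13.3 for Hp, 8.96 for Ptx3, 5.03 for Lcn2 and 4.54 for Chil1. Without the Il11- and Ibsp-led cells high in S100a8 it was 53.1 for Lcn2 and 89.4 for Hp, and at resolution 2 it was 3.74 for Lcn2. Nos2 and Ptx3 thus differed between the libraries by about the same factor with and without those cells. With 1 library on each side, none of these ratios has a replicate check, and time point, animals and library cannot be told apart.

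**Figure D4:**
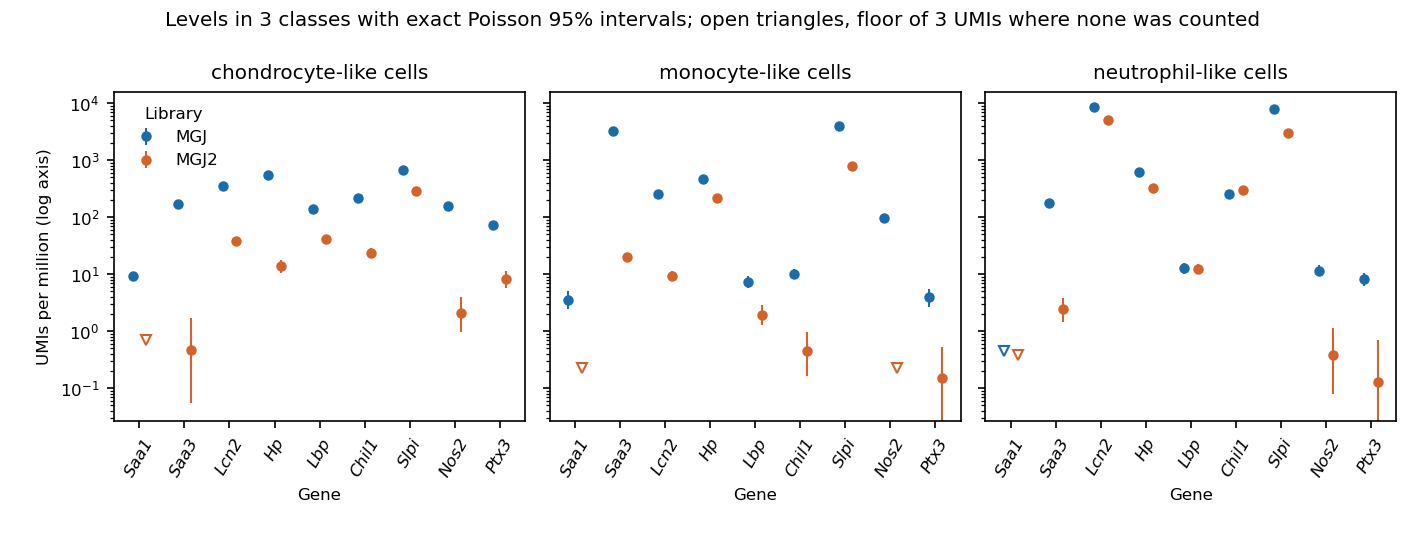
Level of each member (CPM, log axis) in MGJ and MGJ2 for chondrocyte-like, monocyte-like and neutrophil-like cells, with exact 95% Poisson intervals for counting error only and open triangles at the floor of 3 UMIs where none was counted. Saa3 and Nos2 lay higher in MGJ in all 3 classes, while Chil1 in neutrophil-like cells was slightly lower in MGJ (ratio 0.850).

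Monocyte-like cells had 5 of 7 members at least 4-fold higher in MGJ, where 3.76% of 9169 genes were. Nos2 was at least 428-fold higher (830 UMIs against 0, floor of 3), Saa3 had a ratio of 161 (143 to 182), Lcn2 27.4, Chil1 22.7 and Slpi 5.01, and Lbp and Hp were at 3.81 and 2.17. An Arg1- and Cxcl3-led cluster held 92.7% of the MGJ cells and a Cd83-led cluster 98.6% of the MGJ2 cells. Inside the Cd83-led cluster, with 95 and 1443 cells, Nos2 was at least 299-fold higher and the ratio was 51.4 for Chil1, 13.5 for Saa3, 9.35 for Lcn2, 4.01 for Slpi and 1.96 for Hp. That of Chil1 rested on 11 against 6 UMIs (17.4 to 169). Inside the Arg1- and Cxcl3-led cluster, with 1199 and 21 cells, the ratio was 54.6 for Saa3, 5.41 for Slpi, 4.95 for Lcn2 and 4.17 for Hp. Nos2 was at least 7.21-fold higher there. Chil1 was at 9.32 CPM in MGJ, under the floor of 13.4 CPM in MGJ2. Over the class the ratio of Saa3 was 16.9 at resolution 0.5 and that of Chil1 3.20 with doublet calls kept. Neutrophil-like cells had 3 of 8 members at least 4-fold higher, against 2.3% of 6702 genes: Saa3 at 73.0, Nos2 at 30.2 and Ptx3 at 63.6, the last 2 resting on 3 and 1 UMIs in MGJ2. Slpi was at 2.65, but at 0.995 with doublet calls kept, and Saa3 was at 8.99 where cells needed at least 500 genes. The ratio was 1.96 for Hp, 1.67 for Lcn2, 1.02 for Lbp and 0.850 for Chil1, and 65.5% of MGJ and 67.6% of MGJ2 cells were in different clusters. These neutrophil-like values leave out the unnamed Ccl3- and Ccl4-led cluster, with 2527 cells of MGJ and 12 of MGJ2. In the Retnlg- and Ltf-led cluster found in both libraries (523 and 378 cells) Lcn2 was close between them, with a ratio of 1.12 (1.10 to 1.13), and Slpi was at 3.64.

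Myeloid-progenitor-like cells had 1 of 6 members past 4-fold, Saa3 at 6.16, against 1.27% of all genes, with Slpi at 3.86, Hp at 1.88, Lcn2 at 1.78, Chil1 at 1.11 and Lbp at 1.10. Osteoblast-like cells, with 239 and 57 cells, had 3 of 7 members at least 4-fold higher in MGJ, against 1.28% of genes, namely Saa3 (at least 56.0-fold), Chil1 (11.8) and Slpi (4.98). Hp was at least 4-fold lower there (ratio 0.242), against 2.12% of genes, and Ptx3 and Lcn2 had ratios of 0.311 and 0.487. Per S100a8 and S100a9 UMI, osteoblast-like cells of MGJ2 held 1.18 times the Lcn2 of neutrophil-like cells, and those of MGJ 2.85 times. The part of neutrophil RNA in the Lcn2 ratio was not tested. Endothelial-like cells had 3 of 6 members past 4-fold, against 1.71% of genes, with Slpi at 10.5, Lcn2 at 8.73 and Saa3 at 9.64, the last resting on 1 UMI in MGJ2, while Lbp was at 0.570 and Ptx3 at 0.706, the latter with an interval of 0.409 to 1.28. Of the members with at least 50 UMIs, both in dendritic-cell-like cells were past 4-fold, against 1.05% of genes, with Lcn2 at 9.65 and Slpi at 5.71. In T-cell-like cells 1 of 4 was, against 1.71% of genes, which was Saa3 with 49 UMIs in MGJ and 1 in MGJ2.

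Free RNA in droplets can give UMIs to cells that do not express a gene, and B-lineage-like cells served as the reference class. In MGJ, after thinning to 2000 UMIs, 5 members lay above that reference in chondrocyte-like cells with intervals that did not overlap: Lbp in 18.5% of cells against 1.54%, Nos2 in 16.6% against 1.54%, Chil1 in 11.8% against 1.54%, Ptx3 in 11.5% against 0% and Slpi in 39.5% against 13.1%. Saa3 (4.67% against 4.62%) was at the reference, and the intervals of Hp (9.01% against 4.62%) and Lcn2 (15.3% against 8.46%) overlapped with it, as did those of Saa1 (0.486% against 0%). The reference rested on 130 cells, 158 shallower ones being left out, so its 0 of 130 allowed a share of up to 2.80% at the upper end of its interval. Before thinning, Saa3 was seen in 25.1% and Hp in 32.0% of chondrocyte-like cells at a median depth of 21065 UMIs, and in 5.56% and 5.21% of B-lineage-like cells at a median of 1892. In MGJ2 4 members lay above it, Slpi in 18.2% of 143 cells against 3.55% of 845, Lbp and Chil1 in 4.196% each against 0.118%, and Ptx3 in 2.80% against 0%, whereas Lcn2 (2.80% against 3.91%) and Hp (2.10% against 1.30%) did not. At 1000 UMIs, a depth that kept 279 B-lineage-like cells of MGJ, Lcn2 (10.6% against 5.02%) and Hp (6.07% against 2.15%) also lay above the reference there, and in MGJ2 the members above it were Lbp, Slpi and Hp (2.80% against 0%).

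**Figure D5:**
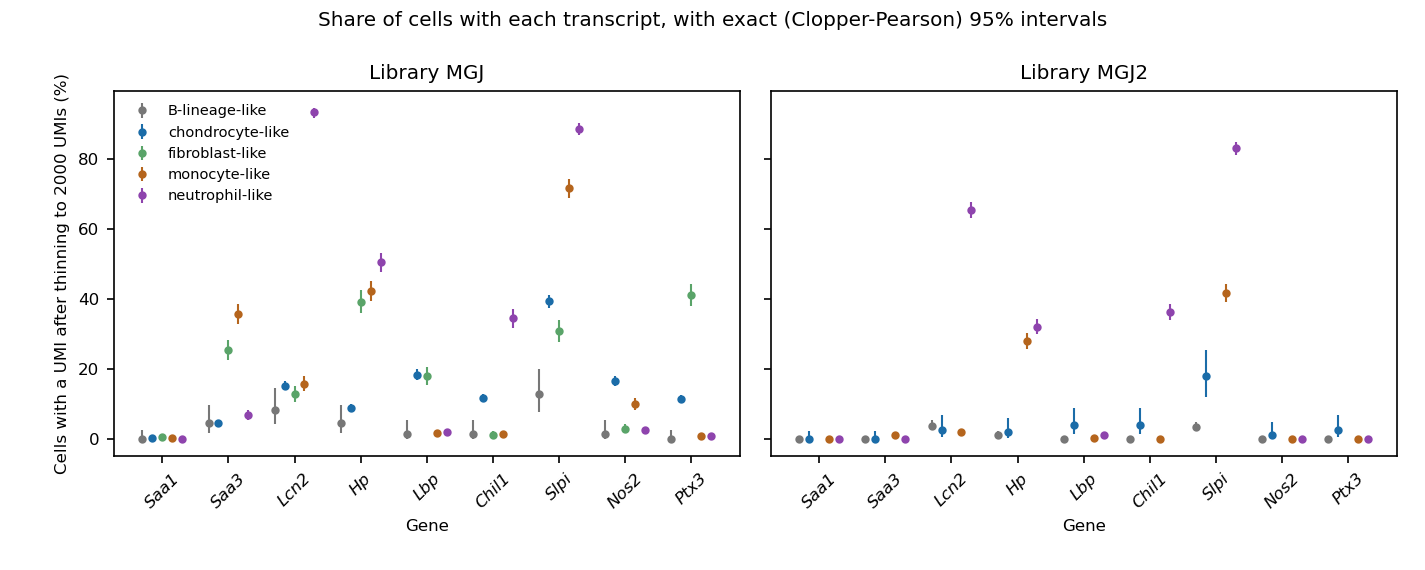
Percent of cells with at least 1 UMI of each member after thinning each cell to 2000 UMIs, in B-lineage-like, chondrocyte-like, fibroblast-like, monocyte-like and neutrophil-like cells of each library (fibroblast-like in MGJ alone), with exact 95% binomial intervals for counting error only. In MGJ the shares of Lbp, Chil1, Slpi, Nos2 and Ptx3 in chondrocyte-like cells lie above those of B-lineage-like cells, while Saa3 lies at the same level (4.67% and 4.62%).

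Neutrophils are a large source of Lcn2 and Slpi, so both were also related to S100a8 and S100a9, abundant neutrophil transcripts. Per S100a8 and S100a9 UMI, chondrocyte-like cells of MGJ held 7.89 times the Lcn2, 16.5 times the Slpi and 173 times the Hp of neutrophil-like cells. B-cell-like cells of MGJ, which should lack Lcn2, held 3.35 times the Lcn2, 4.39 times the Slpi and 8.28 times the Hp. T-cell-like cells of MGJ held 2.64 times the Lcn2, 8.54 times the Slpi and 32.7 times the Hp. The factors of chondrocyte-like cells of MGJ include the 47 Mmp3-led cells. Those held 46.5% of the Lcn2, 16.0% of the Slpi and 68.1% of the Hp UMIs of the class. Their S100a8 was at 176 against 490 CPM in the other chondrocyte-like cells, and S100a9 at 242 against 624 CPM. The factors of the other cells are therefore lower, and their values were not taken. In chondrocyte-like cells of MGJ2 the factor was 0.688 for Lcn2, 3.99 for Hp and 9.03 for Slpi. The part of free neutrophil RNA in the Lcn2, Slpi and Hp counts of other classes was not tested.

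Genes around the members were counted from lists. Of 12 further acute-phase genes with enough UMIs, 10 were at least 2-fold higher in the 47 Mmp3-led cells and 0 at least 2-fold lower, against 4.98% and 22% of all genes, with a median ratio of 5.77 against 0.8004. They were Saa2 (329-fold), the complement genes C3 (45.4-fold) and Cfb (33.9-fold), Steap4 (8.63-fold), the copper oxidase Cp (7.71-fold), the protease inhibitor Serpina3n (7.33-fold), Mt1, Mt2, Il1rn and Hamp, the last with an interval of 0.797 to 8.004. The list is not independent of the cells, because Steap4, Serpina3n, Cp, Mt1, Mt2 and C3 were among the leading genes of the sub-cluster. Inducing cytokines had 0 of 8 at least 2-fold higher and 3 lower. The lower ones were Csf2 at 0.257, Il1b at 0.276 and Il1a at 0.497, the last on 4 UMIs with an interval of 0.135 to 1.28. Tnf was at 1.64 (1.37 to 1.94), Lif at 1.40 (1.29 to 1.52) and Il11 at 1.36 (1.29 to 1.44). Il6 was at 1.14 and Osm at 0.691, both with intervals that included equal levels. Among cytokine and pattern receptors 5 of 17 were higher, including Il1rap (2.64-fold), Myd88 (2.27-fold), Tlr2 (2.14-fold) and Tlr4, whose ratio of 3.17 rested on 4 UMIs with an interval of 0.8404 to 8.47, and 0 were lower. Of 16 transcription factors and feedback genes, Cebpa (4.37-fold, on 17 UMIs, 2.50 to 7.15) and Zc3h12a (2.29-fold) were higher. Bcl3 alone was at least 2-fold lower, at 0.411 (0.177 to 0.813) on 8 UMIs, while Cebpb was at 1.24, Nfkb1 at 0.99 and Cebpd at 0.685. Of 13 partners, the arginine and cofactor genes Gch1 (3.98-fold), Slc7a2 (3.79-fold) and Ass1 (3.66-fold), which supply Nos2 with tetrahydrobiopterin and arginine, were higher and 5 were lower. Each of those 5 rested on at most 3 UMIs in the 47 cells, with an interval that included equal levels.

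Over chondrocyte-like cells as a whole in MGJ, 4 of 14 further acute-phase genes were at least 2-fold higher than in other cells (F3, Steap4, Hamp and Cp) and 5 lower, among them C3 at 0.156, beside 14.1% and 26.7% of all genes. Of 9 inducing cytokines, Il11 (18.2-fold), Lif (9.34-fold) and Csf2 (3.45-fold) were higher and the other 6 lower. Of 17 receptors Osmr (2.03-fold) was higher and 10 lower, and of 16 transcription factors Cebpd (3.11-fold) was higher and 6 lower. The partners had 2 of 15 higher and 11 lower. In MGJ2 the higher and lower counts were 6 and 5 of 11 further acute-phase genes, 2 and 6 of 8 cytokines, 4 and 11 of 17 receptors, with Osmr at 27.6-fold, 0 and 12 of 16 transcription factors and 3 and 9 of 14 partners, beside 19.9% and 33.1% of all genes.

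Across the 29 combinations of class and library with at least 50 cells, the genes whose log levels were closest to each member were ranked by Pearson's r among 13002 genes. The points share libraries and a class can appear once per library, so the values are descriptive. Lcn2 was closest to S100a9 (0.948), S100a8 (0.931) and G0s2 (0.911), and Slpi to Prdx5 (0.885). Chil1 was closest to Acot1 (0.874), then G0s2 (0.827) and Lcn2 (0.821). Saa3 had the chemokine genes Ccl7 (0.857) and Cxcl1 (0.798) and the prostaglandin synthase gene Ptges (0.774), and Hp had Dram1 (0.795), Fosl1 (0.787) and Cebpd (0.779). Nos2 was closest to Saa1 (0.861), and Saa1 to Fgf21 (0.895), though Saa1 was at 0 in all 13 points of MGJ2 and in 11 of the 16 of MGJ, so these values rest on 5 points above 0. Ptx3 had Fbn2 (0.921) and Mfap2 (0.916), genes of connective tissue matrix, and Hhipl1 (0.917). Lbp had Ckap4 (0.841), Ncam1 (0.837) and Wipi1 (0.833).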

How the data were processed

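Single-cell suspensions of digested callus had been loaded on a 10x Chromium with the 3' kit, chemistry version 3, aiming at 5000 cells per library (2 libraries). The deposited matrices hold raw UMI counts per gene and barcode, made by the authors with Cell Ranger (4.0.0 in the matrix header). The submitters' processing notes name GRCm38, Cell Ranger and Seurat, and gene positions follow GENCODE for that build.

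Barcodes with at least 200 genes and at most 20% mitochondrial UMIs were kept (13460 in MGJ and 7806 in MGJ2). Scrublet, in scanpy 1.11.5, then marked 488 (3.63%) and 223 (2.86%) as doublets and these were removed, fewer than the 10.8% and 6.24% expected from the barcode numbers. Its automatic threshold marked none in MGJ, so the MGJ2 threshold served both. Cells were scaled to 10000 UMIs, log-transformed and clustered on 2000 variable genes without the 9 members (30 components, 15 neighbours, Leiden resolution 1, leidenalg 0.10.2), and clusters were called X-like from marker lists. The naming thresholds were set after leading genes were seen, and the members and gene lists were chosen with earlier results of these data known. Named genes were the members, the listed pathway genes, the 3 genes most like each member and the markers, and sub-clusters are named by their leading genes.

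UMIs were summed per class. Genes needed at least 50 UMIs over the 2 groups compared. Exact 95% Poisson, conditional binomial and Clopper-Pearson intervals cover counting error only, since UMIs of 1 library are not replicates. Both samples lacked a group in the labels, so no test was made. Ratios and thinning were tested on simulated data. Alternatives changed the cell filters, doublet removal, resolution, naming, weighting, fold and thinning depth.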

Additional observations from a re-analysis of the deposited data

Results flagged for a closer look

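The barcodes left out of all levels above (few genes, many mitochondrial UMIs or called doublets) were looked at because they lie outside the main measurement. In MGJ the 1323 barcodes left out held 43162 UMIs of the 9 members, 4589.8 CPM against 4865 CPM in the kept cells, and a count of 0 would have allowed 0.319 CPM. In MGJ2 the 426 barcodes left out held 6745 UMIs, 2189 CPM against 2188 CPM in the kept cells, with the same floor at 0.974 CPM. The summed level of the members was therefore close between kept and removed barcodes in each library, and no comparison between groups was made.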

How the results depend on the processing

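Both libraries are single samples, so no value has a replicate error. No paired analysis was possible because the labels put neither library in a group and no result comes from a test. The count of members at least 2-fold higher in chondrocyte-like cells was 4 in MGJ and 2 in MGJ2. At resolution 2, where 37 of the 47 Mmp3-led cells fell in an unnamed cluster, it was 1 (Nos2) and 1 (Lbp). At a 4-fold line it was 2 (Saa1 and Nos2) and 0. Without the Mmp3-led sub-cluster, an alternative chosen after seeing the data, as was leaving out the S100a8-rich sub-cluster, it was 2 in MGJ. The count of members above B-lineage-like cells in MGJ2, 4, was 2 with doublet calls kept and 2 with each cell named by its highest marker score. Directions turned for Chil1 in chondrocyte-like over other cells of MGJ (0.954 at resolution 2), for Saa1 (0.854 by highest marker score, 0.924 without the Mmp3-led cells), for Hp (1.09 with every cell weighted equally) and for Slpi in neutrophil-like cells of MGJ over MGJ2 (0.995 with doublet calls kept). The cause was not tested. No chondrocyte sub-cluster had been set aside, so the alternative of keeping such sub-clusters was the same as the main setting. It could not change the 16 ratios, 63 levels or 23 library ratios compared. Over the other alternatives 6 to 16 of the 16 ratios of chondrocyte-like to other cells, the fewest with every cell weighted equally, 41 to 60 of the 63 levels and 15 to 20 of the library ratios were within 1.5 times the values given. Depth and the number of cells (143) limit Saa1 in chondrocyte-like cells of MGJ2, where a count of 0 had an exact upper limit of 0.851 CPM. That limit covers counting error only.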
